A study of Mus musculus with 4 samples.

Results

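The interferon-inducible GTPases described here are 10 mouse genes, fixed by name, of 17723 genes listed in any library: the guanylate-binding protein (GBP) genes Gbp2, Gbp3, Gbp4, Gbp5 and Gbp7, and the immunity-related GTPase (IRG) genes Irgm1, Igtp, Tgtp1, Tgtp2 and Iigp1. They were chosen with earlier results of these data known. RNA was sequenced from natural killer (NK) cells of C57BL/6J mice aged 6 to 8 weeks, sorted from spleen by surface DNAM-1, an activating receptor encoded by Cd226. The 4 groups are DNAM-1+ and DNAM-1- cells of normal spleen, labelled day 0, and DNAM-1+ and DNAM-1- cells of spleen with acute myeloid leukaemia (AML), labelled day 17 after transplantation of GFP+ MLL-AF9 leukaemia cells into unirradiated mice. Each group holds 1 library, and the labels give neither the mice behind a library, shared between subsets or not, nor any sort gate other than DNAM-1. Levels are the deposited FPKM, reads scaled to transcript length and library size, so different genes can be set side by side.

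GBP and IRG proteins are the main GTPases that interferon-gamma induces in mouse cells, and type I interferon induces many of them too. GBPs assemble on bacteria and on the vacuoles of parasites and help to open them or to alert inflammasomes. IRG effectors (Tgtp1 and Tgtp2, both known as Irgb6, and Iigp1, known as Irga6) coat such vacuoles, while IRG regulators (Irgm1 and Igtp, also known as Irgm3) sit on the cell's own membranes and hold the effectors inactive. NK cells are themselves a main source of interferon-gamma.

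The 4 libraries list 15460 to 16161 genes above 0, and the step size of low microRNA values puts their depth at 8700000 to 8900000 fragments. Cd226 was at 38.6 and 36.1 FPKM in the DNAM-1+ and 0.45 and 0.58 in the DNAM-1- libraries. The 9 NK cell markers summed to 6402 to 7855 FPKM. Markers of other cells were present and unequal. The 8 B cell markers summed to 201 and 220.0 FPKM in the DNAM-1+ and 968 and 933 in the DNAM-1- libraries (normal, then AML). In the same order the sums were 312 and 369 against 721 and 729 for 10 monocyte markers, 65.5 and 74.1 against 422 and 337 for 9 macrophage markers, and 120 and 124 against 68.8 and 72.4 for 9 T cell markers. Single genes weigh heavily in these sums. Ly6c2 (137 and 188 against 159 and 192 FPKM) and Ccr2 (122 and 113 against 98 and 87) were the highest monocyte markers in the DNAM-1+ libraries. The monocyte marker Lyz2 was at 29.3 and 41.9 against 239 and 254 FPKM. Lat (56.7 and 63.9 against 42.8 and 50.4 FPKM) was the highest T cell marker in every library. No gene of these lists was at 0 in all libraries. In bulk RNA, more cells of a type and more RNA per cell cannot be told apart.

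The promoters of the members carried letters of interferon response sites, shown here because the genes are read together below. RefSeq promoters (assembly GRCm38.p6, from 250 bases before the start site to 50 bases after) were matched for 8 of the 10 genes. All 8 held the letters of an interferon-stimulated response element (ISRE: GAAA, any 2 bases, GAAA), bound by interferon regulatory factors, on either strand, against 3.44% of the 32851 promoters of the table. Of the 8, 5 (Tgtp1, Tgtp2, Gbp5, Gbp7 and Igtp) held those of a gamma-activated site (GAS: TTCNNNGAA), through which interferon-gamma acts on its target genes, against 8.3% of all promoters. The second Gbp3 promoter of the table held neither. A match is a description of the letters, not of a factor's binding. Each stretch is 70 bases, 5′ to 3′ on the strand of the gene, with ISRE and GAS letters in capitals. The GAS letters of Gbp5 and Gbp7 lie outside their stretches. The IRG genes shown lie on chromosome 11 and the GBP genes shown on chromosome 3.
Tgtp1: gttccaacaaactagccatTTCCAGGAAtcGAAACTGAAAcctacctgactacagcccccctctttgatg
Tgtp2: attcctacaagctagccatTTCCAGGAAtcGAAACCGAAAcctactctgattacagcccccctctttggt
Igtp: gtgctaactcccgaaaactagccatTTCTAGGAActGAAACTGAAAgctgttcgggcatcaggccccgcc
Irgm1: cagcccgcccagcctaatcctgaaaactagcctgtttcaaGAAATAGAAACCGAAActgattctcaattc
Gbp2: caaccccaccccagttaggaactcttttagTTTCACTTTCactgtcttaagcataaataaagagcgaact
Gbp3: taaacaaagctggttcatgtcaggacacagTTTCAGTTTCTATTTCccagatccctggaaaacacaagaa
Gbp5: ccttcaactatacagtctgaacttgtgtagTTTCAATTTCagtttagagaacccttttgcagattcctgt
Gbp7: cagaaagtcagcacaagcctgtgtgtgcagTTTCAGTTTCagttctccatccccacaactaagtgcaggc
In Tgtp1, Tgtp2 and Igtp the GAS letters stand directly before the ISRE letters. In Irgm1 and Gbp3 a pair of overlapping ISRE matches makes the longer run of capitals. The stretches are chr11:48992284-48992353 (minus strand), chr11:49064243-49064312 (minus), chr11:58199486-58199555 (plus), chr11:48871421-48871490 (minus), chr3:142620574-142620643 (plus), chr3:142559969-142560038 (plus), chr3:142496739-142496808 (plus) and chr3:142530253-142530322 (plus), in the order printed.

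The family was expressed in every library, with a wide range between its members. Summed over the 10 genes, normal spleen gave 255 FPKM for DNAM-1+ cells and 209 for DNAM-1- cells, and AML spleen gave 215 and 180. The DNAM-1+ sum was the higher one in both spleens, and the normal sum was the higher one in both subsets. The 5 GBP genes made up 163, 136, 141 and 121 FPKM of it. Wherever 4 values are given, here and below, the normal pair comes before the AML pair, and DNAM-1+ before DNAM-1- within each pair. Gbp4 was the most abundant member in all 4 libraries, above 90.1% to 93.1% of listed genes. Iigp1, at 0.72 to 1.12 FPKM, and Tgtp1, at 0.27 to 6.12, were the lowest in every library. With 1 library per group there is no replicate spread against which neighbours in this order could be told apart.

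**Figure D1:**
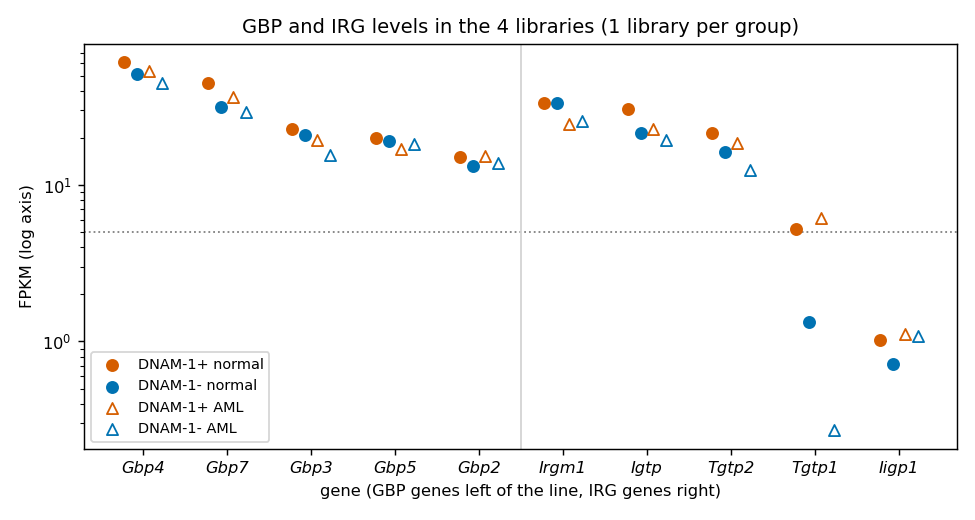
Level of each of the 10 genes (FPKM, log axis) in the 4 libraries, filled circles for normal and open triangles for AML spleen, orange for DNAM-1+ and blue for DNAM-1- cells, with a dotted line at 5 FPKM. Gbp4 was highest in each library, and Tgtp1 is the gene whose 4 points lie farthest apart, from 0.27 to 6.12 FPKM.

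Of the IRG effectors, Tgtp1 and Tgtp2 had the higher value in the DNAM-1+ library of each spleen, and Iigp1 was low in all 4 libraries. Tgtp1 (NCBI Gene 21822) was at 5.21, 1.34, 6.12 and 0.27 FPKM. Both DNAM-1+ libraries lay above both DNAM-1- libraries. Its log2 ratio of DNAM-1+ to DNAM-1- cells, taken after adding 1 FPKM to both values as for all log2 ratios here unless stated, was 1.41 in normal and 2.49 in AML spleen. At the estimated depth these values stand for about 129, 33, 150 and 7 fragments. Tgtp2 (100039796) was at 21.5, 16.1, 18.5 and 12.5 FPKM. It, too, was higher in the DNAM-1+ library of each spleen, by 0.39 and 0.53 (log2 ratios).

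Tgtp1 and Tgtp2 are near-identical copies, so the split of reads between them is uncertain. Their longest coding transcripts in GENCODE M21 (2823 and 2810 nt) differed at 6 of 2810 aligned bases, an identity of 99.8%, with 4 of the differences in the coding part. Of all 50-nt windows of the Tgtp1 transcript, 89.4% also occur in Tgtp2. Reads that lie within such shared windows cannot be assigned to 1 of the genes by sequence. Stretches of 29 bases around a pair of the coding differences (minus strand of chromosome 11, positions from 1 at the 5′ end of the Tgtp1 transcript) are printed with the differing base in capitals, first G543C and then C681T.
Tgtp1: gcagcccccactggGgcaatagagacaac
Tgtp2: gcagcccccactggCgcaatagagacaac
Tgtp1: aagtttggtgagtaCgacttcttcattat
Tgtp2: aagtttggtgagtaTgacttcttcattat
Tgtp1 took 19.5%, 7.67%, 24.9% and 2.12% of the summed FPKM of the pair. Its share was higher in both DNAM-1+ libraries.

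Taken as 1 gene, the pair was at 26.7, 17.5, 24.6 and 12.7 FPKM. The DNAM-1+ libraries remained above the DNAM-1- libraries, with a log2 ratio of the sums, with nothing added, of 0.61 in normal and 0.95 in AML spleen. The separate ratios of Tgtp1 are therefore reported as uncertain, and the sum does not depend on the split.

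**Figure D2:**
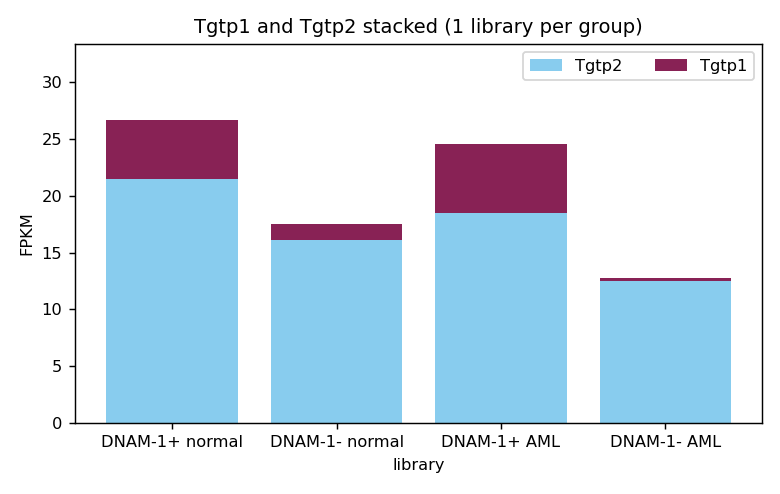
Tgtp2 (light blue) and Tgtp1 (dark purple) stacked, in FPKM, for each of the 4 libraries. The stacked height was 26.7 and 24.6 FPKM in DNAM-1+ and 17.5 and 12.7 in DNAM-1- cells, and the Tgtp1 part was the smaller one in each library.

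Iigp1 (60440), the other effector, was at 1.02, 0.72, 1.12 and 1.08 FPKM, about 19 to 30 fragments a library. All 4 values lay close together. The 95% counting interval of its ratio spanned 0 on the log2 scale in each of the 4 comparisons of libraries, so no difference was detectable at this depth.

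Across both spleens, genes of both GBP and IRG classes were somewhat higher in DNAM-1+ cells. This was tested with limma on log2(FPKM + 1) of the 4 libraries, with spleen as a second term, over the 9074 genes that reached 5 FPKM in at least 1 library. The fit has 1 residual degree of freedom, the difference between the spleens, so its p-values cover the likeness of the spleens and no spread between mice. Of the 10 members, 8 reached 5 FPKM in all 4 libraries, Iigp1 in none and Tgtp1 in the DNAM-1+ libraries alone. Of the 8, 4 rose (Tgtp2, Gbp4, Gbp7 and Igtp) and 0 fell at an adjusted p below 0.05. Over all genes tested 7.35% rose and 8.38% fell, 15.7% in all. Over the 8000 genes at 5 FPKM or more in all 4 libraries, 7.05% rose and 6.3% fell. The median coefficient of the 8 was 0.23, against 0.01 over all genes tested. The members were chosen with earlier results of these data known, so these counts and medians are a description. The 10 other GBP and IRG genes tested had a median of 0.05. These calls depend on the fit: without the mean-variance trend Gbp4, Gbp7 and Igtp were not called, and with no floor on FPKM no gene of any kind was.

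Gbp7 (229900), a GBP that in mice takes part in defence against mycobacteria and Toxoplasma, was at 45.1, 31.4, 36.4 and 29.2 FPKM. The DNAM-1+ library was the higher one in each spleen, and the DNAM-1+ normal library was the highest of all. Gbp7 had a log2 coefficient of 0.41 for DNAM-1+ cells and rose (SE 0.07, limma adjusted p = 0.0152, higher in both spleens). Of the 50-nt windows of its transcript, 10.6% also occur in the predicted gene Gm43802. Gbp4 (17472), which in mice is known to restrain IRF7 signalling, was at 60.7, 51.4, 53.5 and 44.5 FPKM. Both DNAM-1+ libraries lay above both DNAM-1- libraries, with DNAM-1+ AML and DNAM-1- normal cells close together. Gbp4 rose by 0.25 (SE 0.06, limma adjusted p = 0.0434, higher in both spleens). Of the 50-nt windows of the Gbp4 transcript, 12.8% also occur in other genes (5.4% in Gbp11, 5.3% in Gbp6 and 5.2% in Gm43302).

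The other 3 GBP genes were not called for the subset. Gbp3 (55932) was at 22.7, 20.8, 19.4 and 15.6 FPKM (limma adjusted p = 0.126) and Gbp2 (14469), which helps to break the Toxoplasma vacuole in mice, at 15.02, 13.3, 15.2 and 13.8 (adjusted p = 0.219). For both, the DNAM-1+ value was the higher one in each spleen. Gbp5 (229898), known for its part in inflammasome assembly, was at 19.8, 19.1, 16.9 and 18.3 FPKM, with the DNAM-1+ value higher in normal and lower in AML spleen (coefficient -0.03, SE 0.08, limma adjusted p = 0.828).

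The regulators Igtp and Irgm1 differed in their values. Igtp (16145) was at 30.7, 21.4, 22.8 and 19.4 FPKM. Its DNAM-1+ normal library stood above the other 3, which were close together. Igtp rose in DNAM-1+ cells by 0.36 (SE 0.09, limma adjusted p = 0.0359, higher in both spleens). Its log2 ratio was 0.50 in the normal spleen and 0.23 in the leukaemic one. Of its 50-nt windows, 12.3% also occur in Irgm2, the third regulator. Irgm1 (15944), without which mice lose lymphocytes during infection, was at 33.6, 33.2, 24.7 and 25.8 FPKM. Its subsets were close in each spleen, and its AML values were lower than its normal ones (subset coefficient -0.02, SE 0.07, limma adjusted p = 0.854). The difference between Igtp and Irgm1 was not tested.

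Tgtp2 rose by 0.46 (SE 0.07, limma adjusted p = 0.00951, higher in both spleens). Tgtp1 rose by 1.95 (SE 0.37, limma adjusted p = 0.018), but it entered the test only through the subset in which it is high. With the pair summed, 1 gene stood in for both and rose by 0.74 (SE 0.09, limma adjusted p = 0.00337). All of these differences stand beside T cell markers, of which 4 of 5 tested (Cd3d, Cd3e, Cd3g and Lat) rose in DNAM-1+ cells. Cd8b1, the other, was lower there and not called (2.28 against 5.32 FPKM in normal, 0.67 against 2.11 in AML spleen). Of the B cell, monocyte and macrophage markers tested, 8 of 8, 6 of 8 and 7 of 7 fell. Plasma cell and neutrophil markers fell as well, 4 of 5 and 5 of 5 tested. The monocyte marker Ccr2 instead rose (0.34, SE 0.06, limma adjusted p = 0.0141). Of the 9 NK cell markers, 4 rose in DNAM-1+ cells (Ncr1, Tbx21, Klrk1 and Il2rb) and 0 fell. The part of these cells in the GTPase differences was not tested.

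Most of these differences were smaller than 2-fold. Among genes whose higher value reached 5 FPKM, 1 of 9 members (Tgtp1) exceeded its DNAM-1- level 2-fold or more in each spleen, against 1.28% of genes in normal and 0.894% in AML spleen. None of the 9 was at least 2-fold lower, against 3.97% and 3.19%. With Tgtp1 and Tgtp2 summed, no member was 2-fold higher in either spleen. Tgtp1 reached 5 FPKM through the DNAM-1+ libraries alone, so its count is a description. These ratios compare 2 libraries and have no replicate check.

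**Figure D3:**
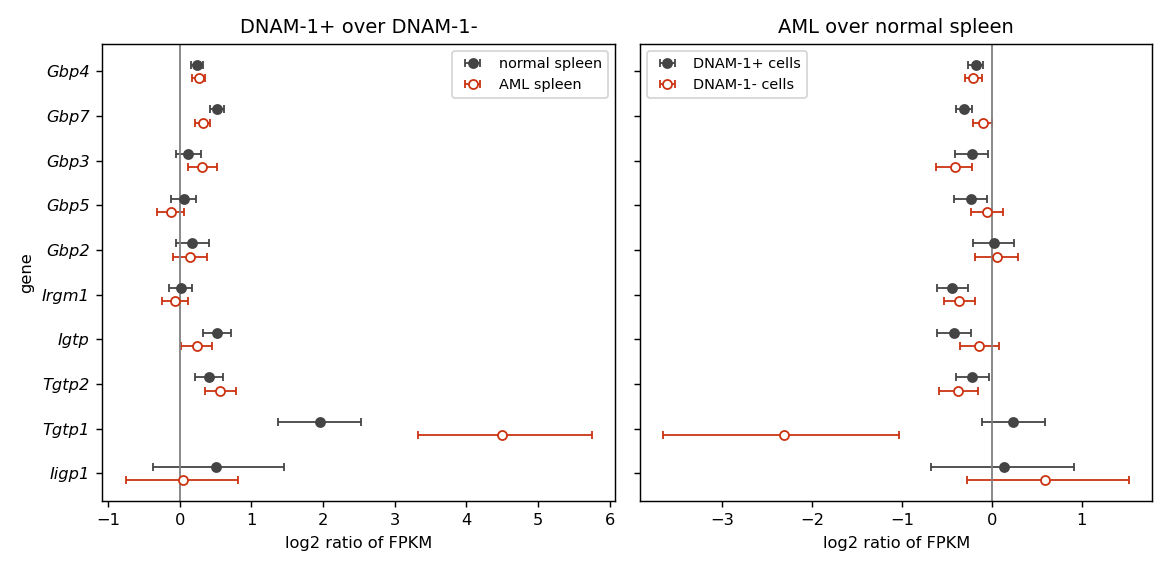
Log2 ratio of FPKM, with nothing added, for each gene, DNAM-1+ over DNAM-1- cells (left; filled for normal, open for AML spleen) and AML over normal spleen (right; filled for DNAM-1+, open for DNAM-1-), with 95% counting intervals from the estimated fragments. In the left panel Tgtp1 lies farthest from 0, a linear 3.89-fold in normal and 22.7-fold in AML spleen. In the right panel both points of Gbp4, Gbp3, Irgm1 and Tgtp2 lie below 0 with their intervals, which cover counting error only.

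Most members were lower in AML than in normal spleen, by amounts that did not pass the test. Of the 8 members at 5 FPKM or more in all libraries, 7 had a negative limma coefficient for AML, with a median of -0.24 against 0.00 over all genes tested. Because the members were chosen with earlier results of these data known, this is a description. None passed an adjusted p of 0.05 in limma. Over all genes tested 0.0661% rose and 0.287% fell, 0.353% in all. Over the 8000 genes at 5 FPKM or more in all libraries, 0.05% rose and 0.237% fell. Irgm1 had the lowest adjusted p, with 33.6 and 33.2 FPKM in normal against 24.7 and 25.8 in AML spleen. Both AML libraries lay below both normal libraries (coefficient -0.39, SE 0.07, limma adjusted p = 0.096, lower in 2 of 2 subsets). It passed the threshold with a floor of 20 FPKM (adjusted p = 0.0388) and after rescaling the libraries by the median ratio (adjusted p = 0.0473), and in the other alternatives its adjusted p was 0.0964 to 0.673.

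Gbp3 had a coefficient of -0.31 for AML (SE 0.08, limma adjusted p = 0.229), Tgtp2 of -0.28 (SE 0.07, adjusted p = 0.245), Igtp of -0.27 (SE 0.09, adjusted p = 0.305) and Gbp4 of -0.19 (SE 0.06, adjusted p = 0.316). Gbp7 had a coefficient of -0.20 (SE 0.07, limma adjusted p = 0.372) and Gbp5 of -0.14 (SE 0.08, adjusted p = 0.52). Each of these genes was lower in AML spleen in both subsets. Among the members at 5 FPKM or more in all libraries Gbp2 was the exception, at 15.02 and 13.3 FPKM in normal against 15.2 and 13.8 in AML spleen (coefficient 0.03, SE 0.07, limma adjusted p = 0.893). Of the members that reached 5 FPKM in the higher library (9 for the DNAM-1+ libraries, 8 for the DNAM-1- ones, without Tgtp1), 0 were 2-fold higher or lower, against 0.311% and 0.346% of genes in DNAM-1+ and 0.193% and 0.397% in DNAM-1- cells.

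The DNAM-1 difference was set side by side for the spleens. The log2 ratio in AML minus that in normal spleen lay between -0.28 (Igtp) and 0.18 (Gbp3) for 9 of the 10 genes. Gbp5 and Irgm1 had ratios on both sides of 0. For Tgtp1 the difference was 1.08 (2.19 with 0.1 FPKM added in place of 1, and 0.39 with 5), of which the split with Tgtp2 can be a part. Its DNAM-1- value went from 1.34 FPKM in normal to 0.27 in AML spleen, while its DNAM-1+ value went from 5.21 to 6.12. This difference between differences has no residual degrees of freedom and was not tested.

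Other GBP and IRG genes, 16 in all, were compared as a list chosen by family. Of the 10 tested, DNAM-1+ cells had 2 that rose and 1 that fell, against 7.35% and 8.38% of all genes tested. None was called for AML in limma, but 1 fell after rescaling by the median ratio. The medians of the coefficients were 0.05 for the subset and -0.12 for AML. Gbp6, a GBP of the chromosome cluster that holds Gbp4 in mice, was at 19.3, 11.8, 13.4 and 7.72 FPKM. The DNAM-1+ library was the higher one in each spleen, and the AML library was the lower one in each subset. Gbp6 rose in DNAM-1+ cells by 0.69 (SE 0.08, limma adjusted p = 0.0021), and its coefficient for AML was -0.53 (SE 0.08, adjusted p = 0.0665). Ifi47, an IRG effector known as Irgd, rose as well, at 65.6, 56.5, 66.2 and 53.0 FPKM (0.26, SE 0.06, limma adjusted p = 0.0407). The gene that fell was 9930111J21Rik1, at 52.1, 64.5, 52.5 and 62.3 FPKM. The third regulator, Irgm2, was at 16.2, 14.97, 13.9 and 12.8 FPKM and was called for neither.

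Genes of the interferon-gamma pathway went both ways between the subsets. In a list of 14 interferon-gamma pathway genes, DNAM-1+ cells had 2 that rose and 4 that fell, against 7.35% and 8.38% of all genes tested. None was called for AML, but with a floor of 20 FPKM 1 fell, as 1 did after rescaling by the median ratio. Fitted without the trend, the list had 0 risen and 2 fallen genes, so that the calls of Jak2 and Socs1 were lost. Jak2, a kinase of the interferon-gamma receptor, was at 38.8, 27.3, 33.9 and 28.5 FPKM and rose (0.37, SE 0.08, limma adjusted p = 0.0296). Socs1, the feedback inhibitor of that signal, was at 20.4, 16.1, 23.5 and 17.1 FPKM and rose (0.38, SE 0.07, limma adjusted p = 0.0162). Irf8, at 185, 248, 186 and 238 FPKM, Irf2, the receptor chain gene Ifngr2 and Ciita fell, beside the lower B cell and monocyte markers. Ifng, the gene of interferon-gamma, was at 64.2, 70.9, 81.9 and 69.99 FPKM, with the DNAM-1+ value lower in normal and higher in AML spleen (limma adjusted p = 0.809).

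Irf1, the gene of a transcription factor that acts on GBP promoters, was not called for the subset. Irf1 was at 172, 156, 145 and 141 FPKM (coefficient for AML -0.20, SE 0.06, limma adjusted p = 0.308).

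Other interferon-gamma response genes, a list of 16 with 12 tested, had 3 that rose and 2 that fell in DNAM-1+ cells. Over all genes tested 7.35% rose and 8.38% fell. Fitted without the trend, the list had 1 risen and 1 fallen gene. At a floor of 20 FPKM, of 11 tested, it had 5 risen and 1 fallen. The immunoproteasome genes Psmb8 (147, 117, 146 and 120 FPKM) and Psmb9 (90.5, 68.7, 87.1 and 66.2) and the peptide transporter gene Tap2 (98.6, 83.3, 101 and 81.0) rose. Cd274 and the B cell and monocyte gene Cd74 fell. None of the 12 was called for AML in limma.

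Many type I interferon-stimulated genes were lower in AML spleen. Of 19 tested in a list of 22, 2 (Oas2 and Oasl2) fell in DNAM-1+ cells, and 9 fell and 0 rose with AML, all 19 had a negative coefficient, and the median coefficient was -0.63. Over all genes tested, 8.38% fell in DNAM-1+ cells, and 0.287% fell and 0.0661% rose with AML. Without the mean-variance trend, and with no floor, 0 genes of the list were called for AML. For the subset, 1 rose and 2 fell without the trend, and 0 were called with no floor. Ifit3 was at 21.1, 20.4, 6.62 and 7.35 FPKM, with both AML libraries below both normal ones (-1.45, SE 0.08, limma adjusted p = 0.00345). Rtp4 (35.7, 34.5, 15.6 and 11.9 FPKM) and Mx1 (16.7, 21.6, 7.89 and 8.65), itself an interferon-induced GTPase of the dynamin family, fell as well, and so did Oas3, Oasl1, Oasl2, Dhx58, Xaf1 and Zbp1. In the type I interferon pathway list, 2 of 8 fell with AML, namely Irf7 (69.6, 82.6, 41.7 and 40.7 FPKM, limma adjusted p = 0.0197) and Irf9 (56.1, 56.3, 36.4 and 39.6, adjusted p = 0.04). Without the mean-variance trend 0 of the 8 fell, and with a pseudocount of 5, 1 did. Whether the GTPases and these genes differ in their AML coefficient was not tested.

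**Figure D4:**
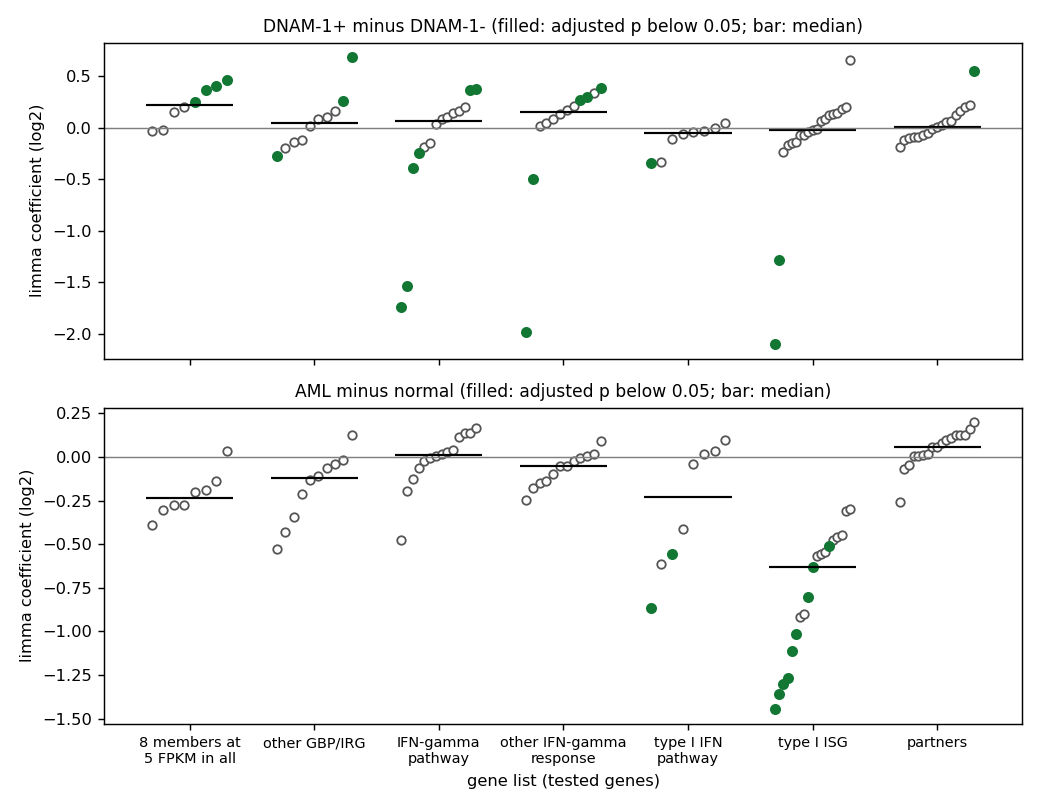
limma coefficients (log2) of DNAM-1+ minus DNAM-1- cells (top) and AML minus normal spleen (bottom) for the 8 members at 5 FPKM or more in all libraries and the tested genes of 6 lists, with filled points for an adjusted p below 0.05 and bars for medians. At the bottom, 7 of the 8 members lie below 0 with none filled, and the type I interferon-stimulated genes have a median of -0.63 with 9 filled.

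The genes nearest in pattern were found by the root mean square difference of centred log2(FPKM + 1) over the 4 libraries, among 8503 protein-coding genes. For Irgm1 they were Mndal (306, 308, 228 and 232 FPKM; a difference of 0.02), Snrnp35, Parp14 (44.2, 42.5, 32.3 and 32.1; 0.03), Nkain3 and Adar (0.04). By this choice the 5 genes share the pattern of Irgm1, with the subsets close and the AML values lower. For Igtp they were Txn1, Atp5j, Arhgap11a, Atad2 and Mcm3 (33.5, 22.1, 24.7 and 20.1; 0.04), of which the last is a DNA replication gene, and for Tgtp2 they were Rfc5 (14.25, 10.5, 12.03 and 8.37; 0.02), Cenps, Zfp512, Gtf3c5 and Ska3.

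For Tgtp1 the nearest genes, Cd3e, Socs2, Cd200r1, Ikzf2 and Trat1, were at a difference of 0.23 to 0.27, so no gene came close. For Gbp7 they were P2ry14, Racgap1, Fntb, Dglucy and Atad2, for Gbp4 Degs2, Mtfmt, Srsf1, Rbm43 and Malsu1, and for Gbp3 Naa38, Snx32, Mrps18a, Pusl1 and Bspry. Gbp5 (Dffb, Kat2a, Ccdc84, Babam1 and Mthfd2) and Gbp2 (Pi4k2a, Ablim1, Cercam, Fam120a and Cdc23) vary so little that 2291 and 3410 genes, respectively, lay within 0.1 of them. For Tgtp2, Igtp, Irgm1, Gbp7, Gbp3 and Gbp4, too, many genes lay within 0.1, namely 64, 132, 147, 207, 249 and 850. Likeness over 4 libraries describes these libraries alone.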

How the data were processed

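The authors deposited FPKM values, per the file headers, in 2 decimals, with genes above 0 listed alone; an unlisted gene was taken as 0. Bowtie2 2.2.5 and RSEM are named in the submitters' processing notes, without roles; the build, annotation and read length are not given in the sources used here. Of 17723 NCBI Gene numbers, 17668 had a symbol in the RefSeq table of GRCm38.p6. Depth was estimated from FPKM steps of microRNA genes (90.3% to 93.9% of values within 0.1 of a whole read, with 35 nt taken off each length). The 95% counting intervals (exact binomial, on these estimated fragments) cover counting error only. Log2 ratios used a pseudocount of 1. The test was limma 3.58.1 in R 4.3.3, with trend, subset and spleen as terms, two-sided, Benjamini-Hochberg adjusted over all genes that reached 5 FPKM in at least 1 library; the fit was tested on simulated data. Nothing shows separate animals behind the libraries, so p-values measure the spread between these libraries alone. The members and lists were chosen with earlier results of these data known. All members are named; from the lists, called genes and, chosen after their values were seen, Ifng, Irf1, Irgm2, Aim2, Casp4 and Nlrp3. Some genes of the lists are not reported here. Alternatives were pseudocounts of 0.1 and 5, no floor or 20 FPKM, no trend, rescaling by the median ratio, and Tgtp1 and Tgtp2 summed.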

Additional observations from a re-analysis of the deposited data

How the results depend on the processing

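No paired analysis was possible because the labels give no replicate numbers or mice; spleen is already a term of the fit. Summing Tgtp1 and Tgtp2 left 0 members 2-fold or more above their DNAM-1- level in normal and 0 in AML spleen, in place of 1 in each, and a pseudocount of 5 left 0 in normal spleen. Without the mean-variance trend, limma called 2 members for the subset (Tgtp1 and Tgtp2) in place of 5. Both counts include Tgtp1, which reached 5 FPKM in the DNAM-1+ libraries alone. The same fit called 321 genes as risen in DNAM-1+ cells in place of 667. With AML it called 1 gene as risen and 4 as fallen, in place of 6 and 26. It then called 1 of the other GBP and IRG genes as risen in DNAM-1+ cells in place of 2. Of the type I interferon-stimulated genes, it called 0 as fallen with AML in place of 9. With no floor on FPKM, 0 members, 0 genes in either direction of the subset or of AML, 0 other GBP and IRG genes and 0 type I interferon-stimulated genes were called. With a floor of 20 FPKM, 434 genes fell in DNAM-1+ cells in place of 760, 18 rose and 51 fell with AML, 1 of the other GBP and IRG genes rose in DNAM-1+ cells, and 1 member, Irgm1, fell with AML. Rescaling gave 18 and 73 genes that rose and fell with AML, with Irgm1 among the latter as 1 member in place of 0. A pseudocount of 5 gave 17 that fell with AML. Without Tgtp1 and Tgtp2 the members summed to 229, 191, 190.0 and 168 FPKM. Of 120 member ratios under other pseudocounts and rescaling, 0 changed sign and 3 moved from the value reported by more than the margin of their counting interval, all of Tgtp1 (4.07 in AML spleen with 0.1 added, and 0.69 in normal and 1.08 in AML spleen with 5 added). The cause of these shifts was not tested. Depth limits Iigp1 and the DNAM-1- values of Tgtp1.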

Other observations

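Genes whose products work beside GBP and IRG proteins, in autophagy-like membrane targeting and in inflammasomes, were mostly level across the 4 libraries. Of 17 tested in a list of 19, 1 was called for the subset and none for AML in limma, against 15.7% and 0.353% of all genes. That gene was Pycard, the inflammasome adaptor ASC, at 35.9 and 35.0 FPKM in DNAM-1+ against 23.4 and 24.3 in DNAM-1- cells of normal and AML spleen (log2 coefficient 0.55 with SE 0.07, adjusted p = 0.00304, higher in both spleens). The DNA sensor gene Aim2 was at 32.05 and 32.8 FPKM in normal and 27.5 and 26.45 in AML spleen (DNAM-1+, then DNAM-1-), and the gene of the caspase that senses cytosolic lipopolysaccharide, Casp4, at 16.4 and 17.4 in normal and 17.8 and 16.1 in AML spleen. Nlrp3, at 0.32 and 0.51 FPKM in DNAM-1+ and 1.75 and 2.03 in DNAM-1- cells, was too low to be tested, and stood beside the lower monocyte and macrophage markers of DNAM-1+ cells.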
